A study of Mus musculus with 4 samples.

Results

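The Müller glia (MG) column of a table of long-read isoform counts from the mouse retina was described here. The column held 6133094 of the table's 149645836 counts (4.10%), spread over 12139 of 16702 genes. Of these, 3532 genes had at least 100 MG counts and were compared with the mean of the other 5 columns. They carried 97.2% of the MG counts.

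The table was made from 4 single-cell libraries of dissociated retinas of wild-type male mice of the strain C57BL6/J. A pair of libraries had no enrichment, 1 of them from postnatal day 40 and the other with no age in its labels. The other two were labelled CD73 enrichment, from postnatal week 8, and CD90.2 enrichment, from postnatal month 4. The protocols describe magnetic depletion of CD73-positive cells, which removes photoreceptors, and magnetic selection of CD90.2-positive cells, a surface protein of neurons, while the design text names FACS. The cDNA was read whole on a nanopore instrument, and the deposited table gives 1 column per cell class: MG, Rod, Cone, AC (amacrine), BC (bipolar) and RGC (retinal ganglion). No column names a library, and each was taken as pooled over them. A column was therefore 1 sample, no value had a replicate and no test between columns was made. The 95% intervals given below cover counting error only, from reads that may share a molecule. Column totals ran from 3509890 counts (RGC) to 55437340 (Rod).

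Müller glia are the radial glial cells of the retina and span it from the inner limiting membrane to the outer one. They take up glutamate and convert it to glutamine, buffer potassium, move water, take part in the recycling of visual pigment for cones, and supply neurons with lipids and metabolites. After injury they raise filament proteins and, in some vertebrates, return to the cell cycle.

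Of the 6 marker genes, 5 stood highest in the MG column and were at least 4-fold above the mean of the others. How the cells were typed is not given in the sources used here, and the levels are given as a description of the column. Glul encodes glutamine synthetase and lies at chr1:153899944-153909723 (GRCm38, plus strand). It stood at 2049 CPM (counts scaled to 1000000 per column, 95% interval 2013 to 2085) in MG, 195 in AC, 117 in Rod, 51.9 in RGC, 49.3 in BC and 32.3 in Cone, a fold of 23.0 (22.3 to 23.7) over the mean of the other 5. Rlbp1 encodes the retinaldehyde-binding protein CRALBP and lies at chr7:79374870-79387048 (minus strand). It stood at 1736 CPM in MG and at 46.1 in Rod, 29.4 in BC, 22.8 in AC, 20.9 in Cone and 0 in RGC, a fold of 72.8 (69.8 to 75.9). A count of 0 in the RGC column allows up to 0.855 CPM. Apoe, a lipid carrier secreted by glia at chr7:19696109-19699188 (minus strand), took 3.93% of all MG counts. Its level was 39298 CPM in MG, 1113 in Rod, 692 in AC, 350 in Cone, 292 in BC and 8.55 in RGC, a fold of 80.0 (79.3 to 80.7). Aqp4, the water channel of glial end feet, was at 935 CPM in MG and at most 16.4 elsewhere (94.7-fold, 88.8 to 101). Slc1a3, the glutamate transporter GLAST at chr15:8634124-8710764 (minus strand), was at 56.6 CPM in MG and at most 2.86 elsewhere (56.9-fold, 47.4 to 68.3). The sixth marker, Dkk3, a secreted protein of the Dickkopf family at chr7:112116017-112159057 (minus strand), was at 48.8 CPM in MG and 58.1 CPM in AC, with 0.684 to 8.26 in the other columns. Its fold of 3.36 (2.97 to 3.81) missed the limit of 4, and the AC column was the highest. With scaling by the median of ratios its fold was 4.49.

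**Figure D1:**
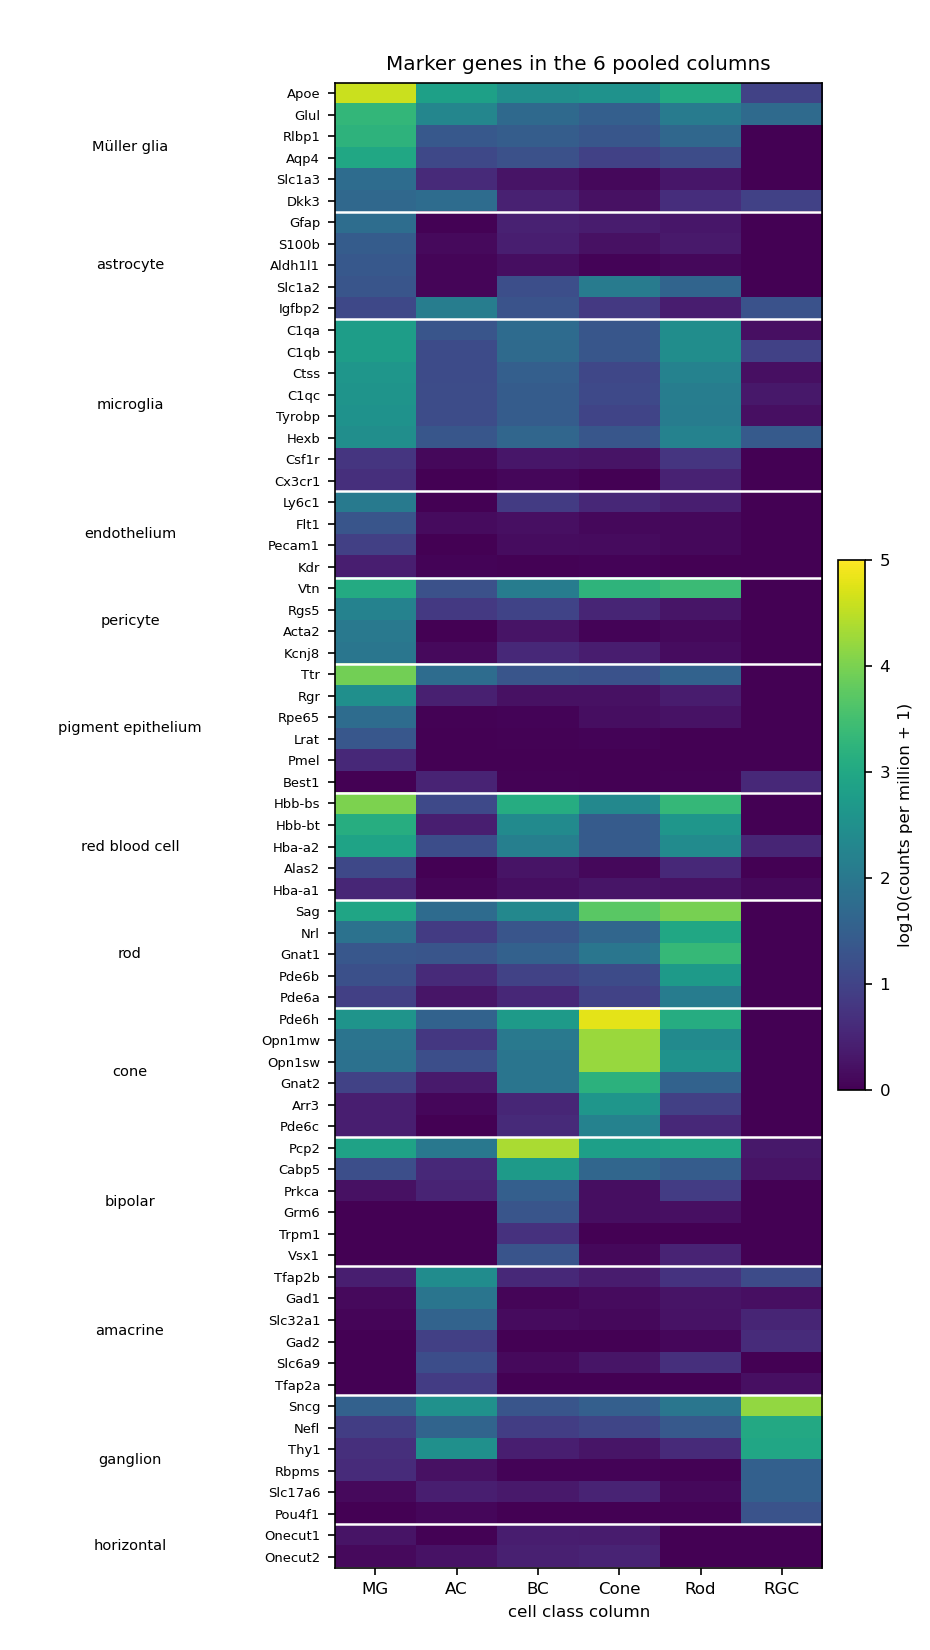
Levels of marker genes in the 6 pooled columns, as log10(CPM + 1), with 1 row per gene grouped by cell type and 1 column per cell class. Of the 6 Müller glia markers, 5 are brightest in MG, where Apoe reaches 39298 CPM, and Dkk3 is slightly brighter in AC. Most genes listed for pigment epithelium, haemoglobin, microglia and mural cells are also brightest in MG. The exceptions among these are Vtn (brighter in Rod and Cone) and Best1 (at 0 in MG).

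The MG column also held counts of genes known as markers of other cells that the retina contains or adjoins. Of 6 genes of the pigment epithelium, 4 passed the minimum and all 4 were higher in MG: Ttr at 8443 CPM, Rgr at 304, Rpe65 at 58.4 and Lrat at 21.4. Pmel was at 2.77 CPM and Best1 at 0, and the summed level of the list was 8829 CPM in MG and 2.85 to 62.4 in the others. Haemoglobin genes summed to 12355 CPM in MG, led by Hbb-bs at 10259, and to 2786 in Rod and 1622 in BC. With annotated isoforms only, the sum in MG was 2089 CPM. Hbb-bs and Hbb-bt, like Hba-a1 and Hba-a2, are near-identical copies, and how their counts split is uncertain. Microglial genes summed to 2676 CPM in MG and 1148 in Rod, with C1qa at 607 in MG and 277 in Rod, although Csf1r (4.89) and Cx3cr1 (3.75) had few MG counts. Mural cell genes were led, apart from Vtn, by Rgs5 at 164 CPM, Acta2 at 102 and Kcnj8 at 88.9. Vtn itself was at 1149 in MG and 2570 in Rod. The endothelial genes summed to 137 CPM in MG and at most 7.65 elsewhere. Ly6c1 made 108 of the 137 CPM, and the others summed to 28.9. Of the astrocyte genes, Gfap (60.5 CPM), S100b (28) and Aldh1l1 (22.3) were higher in MG, and their list summed to 142 CPM against 132 in AC, where Igfbp2 made 131.

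Photoreceptor and neuron genes were also counted in MG. The 5 rod genes summed to 990 CPM, 7.35% of their level in the Rod column, with Sag, the rod arrestin, at 870. The cone genes summed to 555 CPM, 0.556% of the Cone column, and the bipolar genes to 760 CPM, 3.17% of the BC column, of which Pcp2 made 744. The amacrine, ganglion and horizontal cell genes summed to 2.12, 48.9 and 1.14 CPM. Grm6, Trpm1, Vsx1, Gad2, Slc6a9, Tfap2a and Pou4f1 were at 0. What part RNA of other cells has in a value of the MG column was not tested, and fewer cells of a type and less RNA per cell cannot be told apart.

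Against the mean of the other 5 columns, 609 of the 3532 genes (17.2%) were at least 4-fold higher in MG and 124 (3.51%) at least 4-fold lower. In 1081 genes (30.6%) MG was the highest column. The median fold was 0.993. A minimum on MG counts favours genes that are high in MG: with a minimum on the mean level of the 6 columns instead, set after these counts were seen, 270 of 3752 genes were higher and 461 lower. The lists of glial genes below were chosen with results of these data known and are described by their counts. Together they held 191 genes, of which 175 were in the table and 80 had 100 MG counts. Of the 80, 51 were higher, 2 were lower and 27 lay between the limits, with a median fold of 8.81. Genes are called measured below where they had at least 100 MG counts, so that listed genes low in MG could drop out. Each count of higher genes in a list stands beside the 17.2% of all 3532 genes.

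Among 4 measured genes of transmitter uptake, 3 were higher: Glul, Slc1a3 and Slc6a13 (30.8 CPM, 53.4-fold), the GABA transporter GAT2. The other, Slc1a2, the glutamate transporter GLT-1, was at 20.2 CPM in MG, 120 in Cone, 40.4 in Rod, 15.2 in BC and 0.166 in AC, a fold of 0.575. A further 6 genes of the list, Slc38a3 among them, had fewer than 100 MG counts. Of 11 listed genes of potassium, water and ion handling in the table, 8 had fewer than 100 MG counts. Of the 3 measured, Aqp4 and the membrane-bound carbonic anhydrase Car14 (682 CPM, 52.6-fold) were higher. Car2, the cytosolic carbonic anhydrase, was at 27.2 CPM in MG and at 117 in Rod. Kcnj10, which encodes the potassium channel Kir4.1 of Müller glia, had 39 MG counts (6.36 CPM) and was at most 0.234 CPM in the other columns, below the minimum for a fold.

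Of the 6 measured retinoid genes, 4 were higher: Rlbp1, Rgr (333-fold), the retinal dehydrogenase Aldh1a1 (235 CPM, 81.7-fold) and the retinol dehydrogenase Rdh10 (39.5 CPM, 73.2-fold). Degs1, proposed as a retinol isomerase of Müller glia, was at 142 CPM and 2.54-fold, with 98.9 CPM in RGC. Rdh11 was at 19.7 CPM in MG and 58.9 in Rod. Pigment epithelium expresses several of these genes as well, and its own markers Rpe65 and Lrat were at 58.4 and 21.4 CPM in MG and at most 0.776 elsewhere.

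Of 18 listed lipid genes in the table, 11 were below the minimum of MG counts, 3 of them with no MG count. MG was the highest column for 7 of the 18. Of the 7 measured lipid genes, 4 were higher. Beside Apoe these were the lipid-associated chaperone Clu (6980 CPM, 38.2-fold), the phospholipid transfer protein Pltp (246 CPM, 59.3-fold) and the desaturase Scd2 (50.9 CPM, 8.77-fold). The fatty acid binding protein gene Fabp5 was lower, at 92 CPM in MG, 1218 in RGC and 504 in AC (fold 0.220). With scaling by the median of ratios that fold was 0.272, outside the limit for a lower gene. Its relative Fabp7 was at 22.5 CPM in MG and 323 in Cone.

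Of 11 measured genes of glycolysis, lactate and serine synthesis, 4 were higher. Slc2a1, the glucose transporter GLUT1, was at 401 CPM in MG and at most 55.7 elsewhere (12.2-fold). Phgdh and Psat1, enzymes of serine synthesis, were at 115 CPM (5.42-fold) and 41.4 CPM (7.03-fold), while the last enzyme of that route, Psph, was at 36.7 CPM and 0.967-fold. Pygb, a glycogen phosphorylase, was 7.27-fold higher. The glycolytic genes Aldoa (0.418-fold), Ldha (0.458-fold) and Pkm (0.507-fold) had their highest level in Rod, whereas Aldoc (2110 CPM, 3.51-fold) and Ldhb (1269 CPM, 2.83-fold) had it in MG.

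Of 19 listed transcription factors in the table, 12 were below the minimum of MG counts, 2 of them with no MG count. MG was the highest column for 10 of the 19. Of the 7 measured, 4 were higher. Id1 and Id2, inhibitors of basic helix-loop-helix factors, were at 917 CPM (45.9-fold) and 173 CPM (12.1-fold), the Notch target Hes5 at 428 CPM (38.9-fold), and Sox9, a factor of glial identity, at 29.7 CPM (40.3-fold). Six6 was highest in MG at 816 CPM and 3.72-fold, Six3 was at 97.8 CPM and 1.19-fold, and Pax6 was at 27.9 CPM in MG and 296 in AC. Of 18 listed signalling genes in the table, 13 were below that minimum, 2 of them with no MG count. MG was the highest column for 10 of the 18. Of the 5 measured, 3 were higher. These were the receptor Gpr37 (878 CPM, 48.6-fold), the growth factor midkine Mdk (463 CPM, 41.5-fold) and the metalloproteinase inhibitor Timp3 (74.7 CPM, 70.9-fold). Ptn, the relative of midkine, was at 760 CPM in MG and 772 in AC.

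Of 19 listed genes of matrix, junctions and cytoskeleton in the table, 9 were below the minimum of MG counts. MG was the highest column for 14 of the 19. Of the 10 measured, 9 were higher and none was lower. The tetraspanin Cd9 was at 4438 CPM in MG and at most 137 elsewhere (65.9-fold), and its relative Cd81 at 2481 CPM in MG with 479 to 697 elsewhere (4.47-fold). The filament genes Vim (2571 CPM, 65.2-fold) and Gfap (69.5-fold), the collagen Col9a1 (239 CPM, 48.5-fold), the caveolin Cav1 (88.7 CPM, 41.4-fold) and Crb1 (46.0 CPM, 21.8-fold), a polarity gene of the outer limiting membrane, were among the others. Of 16 measured genes of redox, metal and stress proteins, 10 were higher, led in counts by Mt1 (4317 CPM, 4.90-fold) and Prdx6 (3822 CPM, 32.5-fold). Sod1, the cytosolic superoxide dismutase, was lower at 91.6 CPM in MG, with 866 in RGC and 847 in AC (fold 0.195). The small heat shock genes Cryab (115 CPM, 33.2-fold) and Hspb1 (388 CPM, 5.93-fold) were higher, the second with 226 CPM in RGC.

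Of 12 listed genes of reactive gliosis, 9 were in the table, and MG was the highest column for 7 of them. Another limit is that 5 of the 9 were below the minimum of MG counts, which favours genes high in MG. The 4 measured genes were all higher: Vim, Gfap, the cytokine signalling inhibitor Socs3 (121 CPM, 11.8-fold) and the lipocalin Lcn2 (85.0 CPM, 11.4-fold). Of 10 measured immediate early genes, 7 were higher, among them Fos (837 CPM, 8.03-fold), Jun (422 CPM, 21.7-fold), Atf3 (109 CPM, 8.86-fold) and Junb (31.8 CPM, 4.06-fold, or 3.83-fold with TMM scaling). Egr1 had 13 MG counts. All 4 libraries were dissociated with papain, and no column of undissociated tissue was compared.

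**Figure D2:**
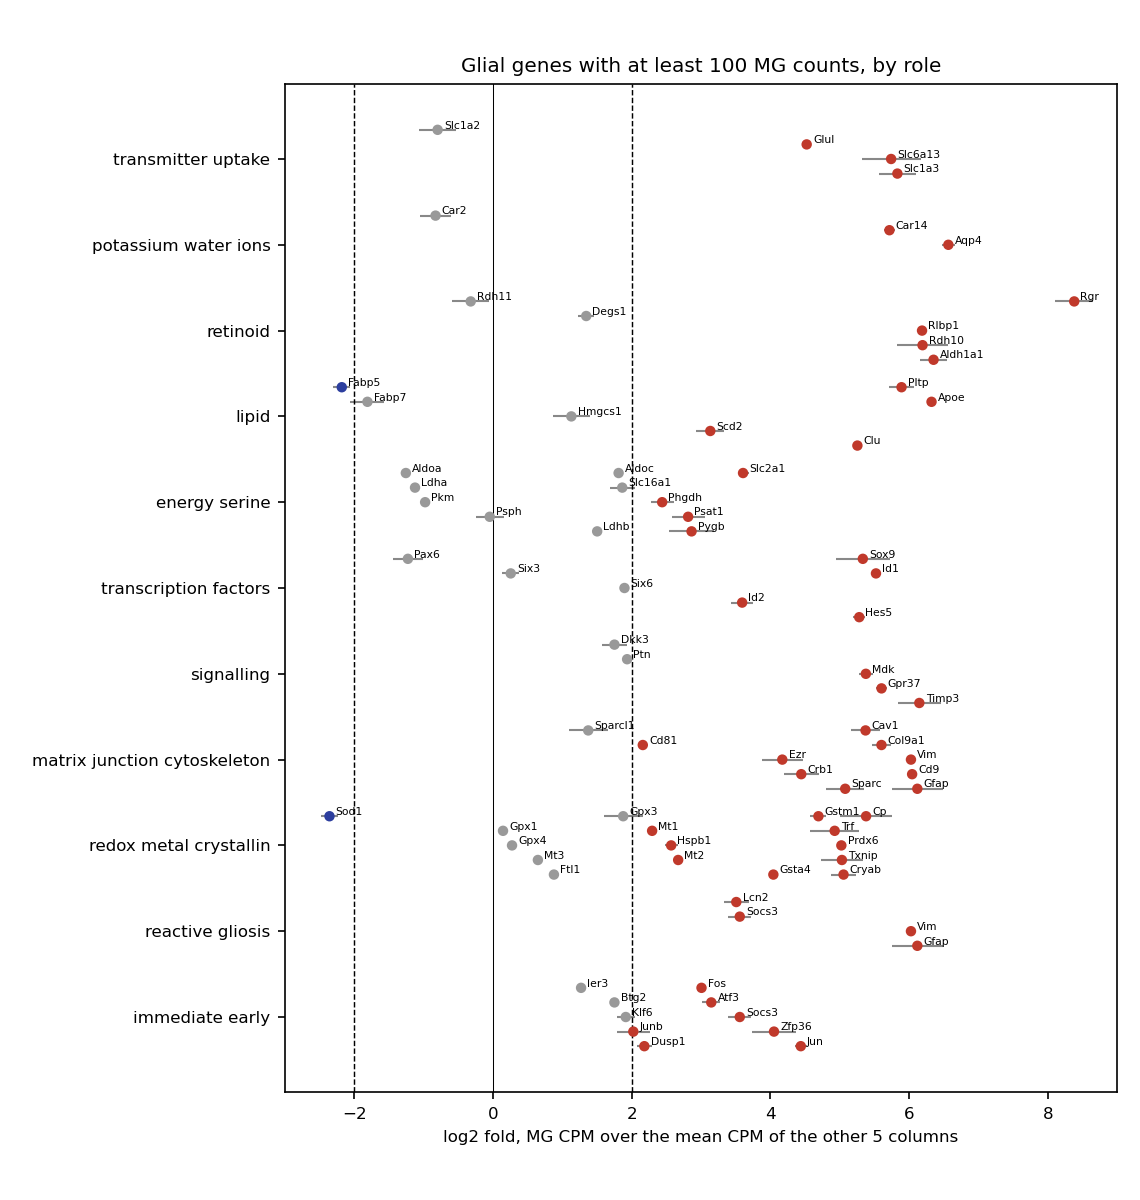
Log2 fold of each glial gene with at least 100 MG counts, MG level over the mean level of the other 5 columns, by role, with 95% counting intervals as bars and dashed lines at the 4-fold limits. Red points are at least 4-fold higher, blue points at least 4-fold lower (Fabp5 and Sod1) and grey points between. Genes of 2 roles (Gfap, Vim and Socs3) are drawn in both.

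The 20 genes with the largest fold ran from 147 (Aldh1a7) to 1230 (Serpine3, 136 CPM in MG and at most 0.415 elsewhere, with an interval of 826 to 1831). Ttr, Rgr, Rpe65, Lrat, the melanocyte antigen Mlana (51.4 CPM, 410-fold), the retinol dehydrogenase Rdh5 (654 CPM, 379-fold) and the lactate transporter Slc16a8 (165 CPM, 263-fold), all known from pigment epithelium, were among them. So were Acta2 (409-fold) and Tagln (162 CPM, 301-fold), genes of smooth muscle, and the gap junction gene Gja4 (206-fold), known from arteries. The other 9, in falling order of fold, were Gsta1, Pon1, Gkn3, Creb3l4, Ggt1, Gsta2, Calml4, Hspb2 and Aldh1a7. Gsta1 and Gsta2 are near-identical copies, and their counts may be shared between them. All 20 were at 0 in the RGC column, which has the fewest counts, so that a count of 0 there allows up to 0.855 CPM. A 0 in RGC also lowers the mean that the fold is taken over.

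The 10 genes with the most MG counts were Apoe, Cst3, Dbi, Mgarp, Hbb-bs, Bsg, Tpt1, Ubb, Ptgds and Ttr. Of these, Dbi (11771 CPM, 21-fold), which encodes the acyl-CoA-binding protein and diazepam binding inhibitor, Ptgds (8485 CPM, 77.8-fold), a prostaglandin synthase, and Bsg (9946 CPM, 5.92-fold) were higher, with Apoe, Hbb-bs and Ttr. The cystatin Cst3 was at 11998 CPM in MG and 11472 in Rod, and Mgarp was higher in BC (14155 CPM) than in MG (10681 CPM).

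The isoforms of MG genes were compared next. In 2181 genes with at least 100 counts in MG and 100 in the others, the most abundant isoform of MG was compared with that of the other 5 columns together. It differed in 234 genes. In 80 (3.67%) the share of the MG isoform was also at least 50 percentage points higher in MG, and these are called switched. By the same rule 110 of 4588 genes were switched in AC (2.40%), 58 of 4166 in BC (1.39%), 28 of 2295 in Cone, 65 of 4858 in Rod and 42 of 1578 in RGC. In 75 of the 80 genes the share in MG was above that in every other column with 20 counts of the gene. The 80 were chosen for a higher share in MG, which favours such an outcome. Of 78 with known structures of both isoforms, 29 differed by an internal exon held only by the isoform of the others and 8 by one held only by the MG isoform, with 3 that had both. The first exon differed in 25 and the last exon in 18. Of the 80 genes, 23 were also at least 4-fold higher in MG and 2 lower. Among all 3532 genes those shares were 17.2% and 3.51%, but that set is wider than the 2181 genes from which the 80 came. The shares among the 2181 were not counted.

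The markers themselves were not switched. Glul and Apoe each had a single isoform in the table. The most abundant Rlbp1 isoform held 64.3% of its counts in MG and 63.4% to 66.8% in AC, BC, Cone and Rod. The leading Aqp4 isoform held 84.8% (83.8 to 85.7) in MG and 82.5% to 93% elsewhere. Slc1a3 had 341 of 347 MG counts on 1 isoform and 69 of 138 in AC. The leading Dkk3 isoform held 62.2% (56.4 to 67.7) in MG and 74.4% in AC, a difference short of the limit.

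The largest difference was in Asph, which encodes aspartyl beta-hydroxylase and shorter proteins of the endoplasmic reticulum membrane. An isoform of 13 exons held 167 of 174 MG counts (96.0%, 91.9 to 98.4), and 0.735% in AC, 1.24% in BC, 1.64% in Cone, 5.16% in Rod and 0% in RGC. The isoform of the others had 5 exons and another last exon, and included a 45-nt exon that 7 of 174 MG counts held. Eml2, a microtubule-associated protein gene, used a downstream first exon in 121 of 123 MG counts (98.4%), in 20 of 37 Rod counts and in 18 of 723 AC counts. Calca encodes calcitonin or the peptide CGRP, depending on which last exons its transcript takes. The isoform that ends at the upstream exon, the calcitonin type, held 178 of 191 MG counts (93.2%) and 29 of 33 Rod counts, whereas the downstream, CGRP type held 193 of 232 counts in AC and 66 of 66 in RGC, and 0 in MG. Here the Rod column stood with MG and apart from AC and RGC.

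**Figure D3:**
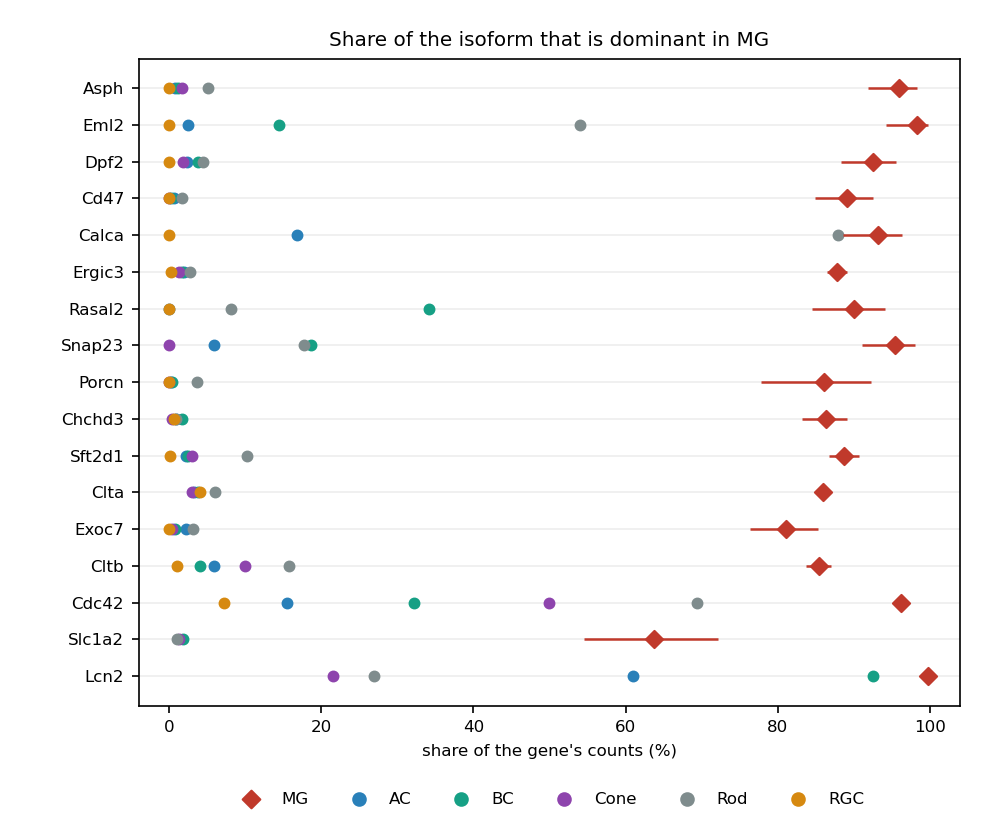
Share of the gene's counts held by the isoform that is dominant in MG, for the 10 genes with the largest difference and 7 further genes, with 1 point per column of at least 20 counts and a bar for the 95% interval in MG. Red diamonds (MG) lie between 63.7% and 99.8%, to the right of all other columns, and Calca in Rod (87.9%) and Lcn2 in BC (92.5%) come closest.

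The 7 further genes in that plot were chosen after their values were seen. In Cdc42, a small GTPase of cell polarity, the isoform with the more downstream last exon held 96.2% (95.2 to 97) of MG counts, 69.4% in Rod, 49.9% in Cone, 32.2% in BC, 15.6% in AC and 7.27% in RGC. In Slc1a2, whose carboxy-terminal variants are long known, the isoform reaching a further last exon held 79 of 124 MG counts (63.7%, 54.6 to 72.2) and 1.07% to 1.81% in Rod, Cone and BC. The isoform ending earlier held 97.1% of the 2240 Rod counts. In Lcn2 the isoform with the proximal first exon held 520 of 521 MG counts, 92.5% in BC, 61% in AC, 27% in Rod and 21.6% in Cone.

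Crb1 and Pkm, both on the lists of glial genes, were not switched. For Crb1, an unannotated isoform of 4 exons held 209 of 282 counts in MG (74.1%) and 92 of 95 in AC, while another unannotated isoform of 4 exons held 200 of 269 counts in Rod and none in MG. Annotated Crb1 with 6 exons held 56 MG counts (19.9%). For Pkm, pyruvate kinase, a pair of 167-nt exons exclude each other, the upstream one giving the M1 enzyme and the downstream one M2. The isoform with the downstream exon held 93.4% (92.8 to 94.0) of MG counts, 93.6% in Cone, 91.6% in Rod, 90.6% in BC, 38.5% in AC and 0.170% in RGC. MG stood with photoreceptors and bipolar cells. Rod genes stood in MG at 7.35% of their level in Rod, and what part rod RNA has in the Pkm share was not tested.

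Many switched genes differed by short internal exons, and single exons were then measured, an analysis added after the switched genes had been seen. The exons named were chosen after their values were seen. Inclusion of an exon was the share of counts of isoforms that hold it, among isoforms that hold it or skip it. Over 2122 exons with 100 such counts in MG and in the others, inclusion was at least 50 percentage points lower in MG for 51 exons of 37 genes (2.4%) and higher for 18 exons of 16 genes (0.848%). In 49 of the 51 MG was the lowest of the columns with at least 20 such counts. The 51 were chosen for lower inclusion in MG, which favours that outcome. When exons that overlap were counted once, 48 of 2068 were lower.

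The share of exons lower in MG was highest among short exons. Of 71 exons of at most 27 nt, the usual limit for a microexon, 17 were lower in MG (23.9%) and none was higher. Of 315 exons of 28 to 60 nt, 15 were lower (4.76%) and 4 higher, and of 1736 longer exons 19 were lower (1.09%) and 14 higher. A multiple of 3 bases, which keeps the reading frame, was the length of 15 of the 17 and of 45 of the 71. By the same rule, exons of at most 27 nt that were lower in a column numbered 5 of 127 in AC, 1 of 126 in BC, 0 of 79 in Cone, 0 of 150 in Rod and 4 of 50 in RGC, and those higher 6, 2, 2, 6 and 2. Neuronal microexons are known to be inserted by the splicing factor SRRM4 and held back by PTBP1. Srrm4 had 3 MG counts (0.489 CPM) and stood at 14.6 CPM in BC, 6.84 in Cone, 6.80 in Rod and 3.09 in AC. Ptbp1 was at 14 CPM in MG, 18 in Rod and 10.3 in BC, and none of the 17 splicing regulators in the table reached 100 MG counts. What part these factors have in the inclusion of the exons was not tested.

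**Figure D4:**
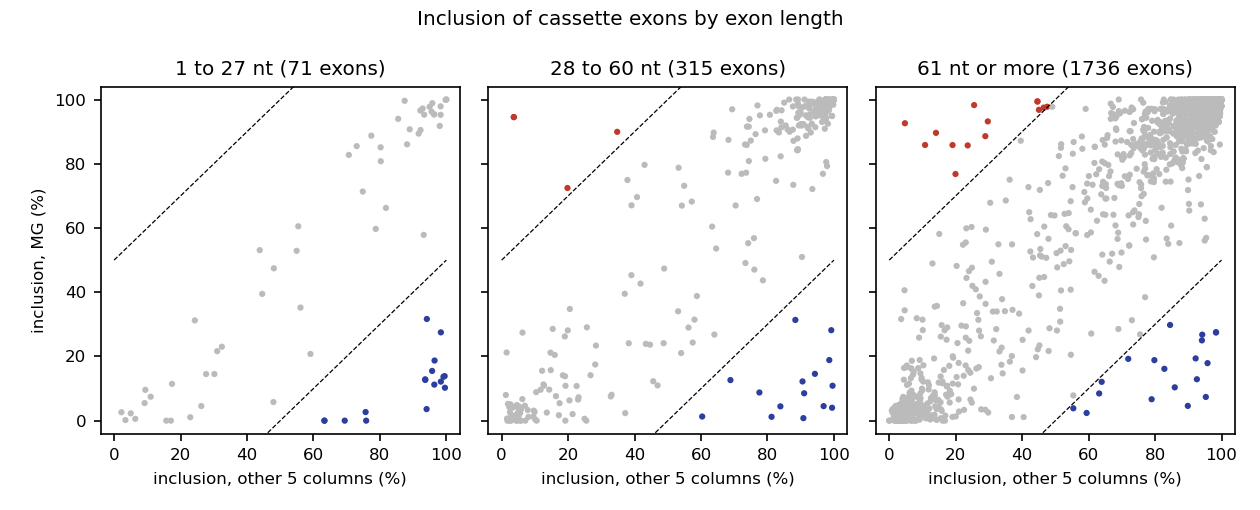
Inclusion of 2122 cassette exons in MG against the other 5 columns together, in percent, by exon length. Dashed lines mark a difference of 50 percentage points. Blue points are lower in MG (17, 15 and 19 exons from left to right), red points higher (0, 4 and 14), and some points coincide.

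The sequences of 8 of these exons are given 5′ to 3′ from the transcripts of GENCODE M21, with the exon in capitals and 12 bases of each coding neighbour in lower case, to show how little sequence sets the isoforms apart.
Ergic3 (chr2:156015377-156015391, plus strand): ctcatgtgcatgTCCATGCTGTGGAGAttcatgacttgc
Chchd3 (chr6:32893392-32893406, minus strand): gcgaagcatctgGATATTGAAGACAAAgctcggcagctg
Porcn, 15 nt (chrX:8201658-8201672, minus strand): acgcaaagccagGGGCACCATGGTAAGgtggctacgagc
Porcn, 18 nt (chrX:8203026-8203043, minus strand): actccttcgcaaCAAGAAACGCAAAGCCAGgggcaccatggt
Ssr1 (chr13:37983095-37983109, minus strand): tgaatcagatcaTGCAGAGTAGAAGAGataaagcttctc
Cd47 (chr16:49908054-49908078, plus strand): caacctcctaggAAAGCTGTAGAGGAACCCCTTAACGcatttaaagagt
Psap (chr10:60297537-60297545, plus strand): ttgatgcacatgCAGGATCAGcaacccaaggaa
Pls3 (chrX:75799717-75799743, minus strand): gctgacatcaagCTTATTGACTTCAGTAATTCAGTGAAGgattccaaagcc

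Ergic3, a protein of vesicle traffic between endoplasmic reticulum and Golgi, had the most counts among them. Its 15-nt exon was held by 328 of 2697 MG counts (12.2%, 11 to 13.5) and by 97.3% in Rod, 98.1% in AC, 98.3% in BC, 98.7% in Cone and 99.7% in RGC. The gene had 57159 counts in the other columns. Only the isoform that skips the exon carries an Ensembl name in the table. Chchd3, a scaffold of mitochondrial cristae, likewise held its 15-nt exon in 75 of 548 MG counts (13.7%) and in 98.3% to 99.6% elsewhere. In Porcn, the acyltransferase that lipidates Wnt proteins, the exons of 15 and 18 nt follow each other and were held by 14 and 13 of 101 MG counts, against 96.3% to 100% and 84.3% to 99% elsewhere. Cd47, the surface protein that restrains phagocytosis, differs in its cytoplasmic tail. Its 25-nt exon was held by 29 of 283 MG counts (10.2%) and by 98.0% to 100% elsewhere, and a following 33-nt exon by 31 of 285 MG counts (10.9%).

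Psap, the precursor of the saposins of lysosomes, has a 9-nt exon that 449 of 1418 MG counts held (31.7%, 29.2 to 34.2), against 76.9% in Rod, 90.6% in AC, 96.7% in Cone, 97% in RGC and 98.3% in BC. Ssr1, a subunit of the translocon-associated protein complex, held its 15-nt exon in 18 of 142 MG counts (12.7%), with 88.9% to 94.8% in AC, BC, Cone and Rod. Pls3, an actin-bundling plastin, held 27 nt in 4 of 111 MG counts (3.60%) and in 75.0% of 32 Rod, 83.6% of 201 BC and 85.0% of 160 AC counts. At 0 of 173 MG counts was the 27-nt exon of Chpt1, held by 56.2% in AC, 69.6% in BC, 75.2% in Rod and 96.2% in Cone. The 24-nt exon of Cers6 was at 0 of 113, with 37.5% in Rod, 46.2% in AC and 86.7% in BC. The exons of 18 and 15 nt of Pdlim5, held by the same isoforms, were at 0 of 190. They were held by 23.0% in BC, 71.9% in Rod and 99.1% in AC. Eef1d, a translation elongation subunit, held 15 nt in 101 of 3772 MG counts (2.68%) and in 70.1% to 80.6% in AC, BC, Cone and Rod.

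**Figure D5:**
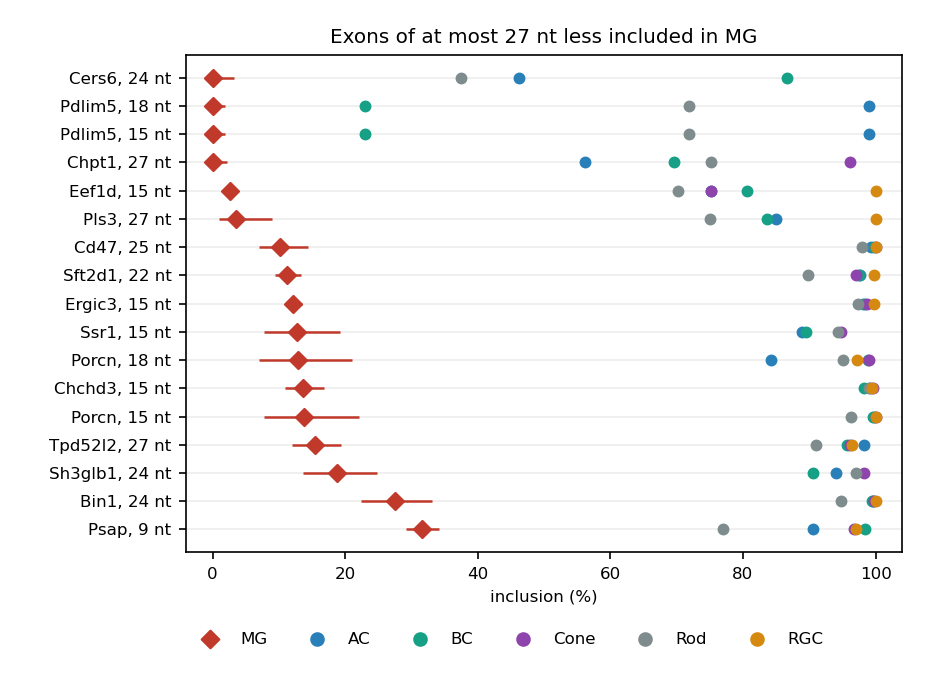
Inclusion, in percent, of the 17 exons of at most 27 nt that were lower in MG, with 1 point per column of at least 20 informative counts and a bar for the 95% interval in MG. The MG diamonds lie between 0% and 31.7% and to the left of every other column for all 17.

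Both clathrin light chain genes, which line coated vesicles, took the short form in MG. Their exons, known as neuronal inserts, are shown for their likeness: the 54-nt exons of Clta and Cltb are identical at 37 of 54 positions (68.5%).
Clta, 54 nt (chr4:44030215-44030268, plus strand): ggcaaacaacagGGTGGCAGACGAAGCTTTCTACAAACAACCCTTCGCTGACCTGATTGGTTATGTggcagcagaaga
Cltb, 54 nt (chr13:54597026-54597079, minus strand): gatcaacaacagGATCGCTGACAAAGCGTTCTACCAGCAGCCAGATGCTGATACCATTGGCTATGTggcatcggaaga
Clta, 36 nt (chr4:44031400-44031435, plus strand): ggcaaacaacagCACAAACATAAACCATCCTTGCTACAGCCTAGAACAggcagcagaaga

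The 54-nt exon of Clta was held by 696 of 5700 MG counts (12.2%, 11.4 to 13.1), 80.9% in Rod, 89.8% in Cone, 90.4% in AC, 92.7% in BC and 95.8% in RGC. Its 36-nt exon was held by 12.6% in MG, 44.3% in RGC, 57.9% in AC, 81.9% in BC, 87.6% in Rod and 90.1% in Cone. The isoform with neither held 86.0% (85.1 to 86.9) of MG counts and 3.04% to 6.01% in the other columns. The 54-nt exon of Cltb was held by 274 of 1880 MG counts (14.6%, 13 to 16.3), 84.3% in Rod and 90.0% to 98.9% in Cone, AC, BC and RGC.

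The tropomyosin genes Tpm2 and Tpm3, which encode proteins along actin filaments, each have a pair of 76-nt exons known to exclude each other. MG took mainly the upstream one of both genes, although a small part of the Tpm3 counts held both exons. They are shown because the exons lower in MG are identical at 58 of 76 positions between the genes and those higher in MG at 47.
Tpm2, higher in MG (chr4:43519003-43519078, minus strand): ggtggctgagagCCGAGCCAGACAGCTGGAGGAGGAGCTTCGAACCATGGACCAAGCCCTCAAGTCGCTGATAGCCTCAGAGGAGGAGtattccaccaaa
Tpm3, higher in MG (chr3:90088401-90088476, plus strand): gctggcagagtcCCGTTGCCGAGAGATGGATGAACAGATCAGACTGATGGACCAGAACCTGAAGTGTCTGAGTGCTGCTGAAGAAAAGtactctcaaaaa
Tpm2, lower in MG (chr4:43518644-43518719, minus strand): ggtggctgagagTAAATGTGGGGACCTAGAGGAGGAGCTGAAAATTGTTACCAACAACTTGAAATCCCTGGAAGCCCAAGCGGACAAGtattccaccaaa
Tpm3, lower in MG (chr3:90089048-90089123, plus strand): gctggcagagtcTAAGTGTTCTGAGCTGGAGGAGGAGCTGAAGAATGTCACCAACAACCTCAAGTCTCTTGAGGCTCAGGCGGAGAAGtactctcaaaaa

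For Tpm2, 484 of 540 MG counts held the upstream exon (89.6%, 86.7 to 92.1), with 23.8% in Rod, 19.7% in Cone, 15.8% in BC and 0% of 310 counts in AC. For Tpm3 the upstream exon was held by 85.8% (82.5 to 88.7) in MG, 66.2% in Rod, 66.0% in Cone, 45.4% in BC, 11.1% in AC and 6.17% in RGC. Tpm3 in Rod and Cone lay nearer to MG than to AC. Tpm2 is also a gene of smooth muscle, and Acta2 and Tagln stood at 102 and 162 CPM in MG. Acsl6, a long-chain acyl-CoA ligase, showed the same arrangement: of a pair of 78-nt exons, MG held the downstream one in 251 of 271 counts (92.6%), and Rod, BC, Cone and AC in 1.41%, 1.54%, 7.27% and 18.4%.

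Other exons lower in MG were longer. Bsg, which encodes basigin, a partner of lactate transporters, has a 348-nt exon known from photoreceptors (chr10:79708697-79709044, plus strand). It was held by 1460 of 61000 MG counts (2.39%, 2.27 to 2.52), 0.270% in RGC, 19.5% in AC, 62.9% in BC, 85.8% in Rod and 87.2% in Cone. Here RGC and not MG was the lowest column. In Exoc7, a subunit of the exocyst, exons of 39 and 93 nt were held by 18.9% and 12.9% of 318 MG counts, and by 96.8% to 100% and 71.6% to 100% elsewhere. Of the exons higher in MG, that of 54 nt in Atp6v1h, a subunit of the vacuolar proton pump, was held by 213 of 294 MG counts (72.4%, 67.0 to 77.5), 39.0% in Rod and 4.20% to 21.6% in the other columns. In Lsamp, a neuronal adhesion protein, exons of 36 and 33 nt were held together by 726 of 768 MG counts (94.5%), 41.5% of 284 Rod counts and 0 of 364 RGC counts.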

How the data were processed

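The authors deposited whole-number counts per isoform for 6 cell classes, taken here as pooled over the 4 libraries, and a set of transcript models whose source field names FLAIR. Reads were mapped to build mm10, per the submitters' processing notes; the aligner, the cell typing, the doublet filter and any collapse of reads to molecules are not given in the sources used here. Nothing in the labels ties a column to separate animals, so no comparison has a p-value.

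Isoform counts were summed per gene by the gene part of each identifier. Symbols were found for 13448 of 13452 Ensembl genes (444 of them without the version). Counts were scaled to 1000000 per column (CPM), with no scaling by length. Genes with at least 100 MG counts were called at 4-fold against the mean of the other 5 columns. Folds carry intervals from a delta method on Poisson counts, levels exact Poisson and shares exact Clopper-Pearson 95% intervals. A count of 0 allows 3 counts. Structures came from the deposited models, all 36426 of which had a Rod count, and otherwise from GENCODE M21 (GRCm38); isoforms without either held 0.0839% of MG counts. Shares of the others were summed CPM over the 5 columns.

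The members, lists and rules were chosen with earlier results of these data known. Named genes were members of the role and marker lists (those with the highest MG level and those called), the 20 largest folds, the 10 genes with the most MG counts, the 10 largest share differences and the main isoform of each marker; exceptions are marked. Some genes of the lists are not reported here and were left out of the lists. Just inside the limits lay Immp2l (4.00-fold) and Gpm6b (50.3 points), and just outside Rasl11a (3.995-fold) and Slc35a2 (48.9 points). At the minimum, 11 genes had 100 MG counts and 16 had 99. The code for the rules was run on simulated counts with planted differences well beyond the limits and with counting error only. That run checks the code and says nothing on how sure a call in these data is. Alternatives used TMM factors from edgeR 4.0.16 and median of ratios factors from DESeq2 1.42.0 in R 4.3.3, and Python 3.11.15 with numpy 2.4.6, pandas 2.3.3 and scipy 1.17.1 for the rest. No column of the table was left unused.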

Additional observations from a re-analysis of the deposited data

How the results depend on the processing

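No paired analysis was possible because each cell class is 1 column without replicate numbers. The 609 higher genes became 590 with TMM scaling and 679 with the median of ratios, and 590 and 609 of these were called without such scaling too. They fell to 247 at a minimum of 500 MG counts and to 270 with the minimum on the mean of the 6 columns. The 124 lower genes became 198 and 30 at minimums of 50 and 500, 461 with the minimum on the mean, 53 against the median of the other 5 columns, 531 at 2-fold and 39 at 8-fold. Genes highest in MG fell from 1081 to 472 at a minimum of 500. The median of ratios moved the median log2 fold of all genes by 0.29, and the median of the other 5 columns in place of their mean moved it by 0.14. Median of ratios scaling turned the sign of Psph (1.17-fold) and brought the role genes called higher from 51 to 58.

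A minimum of 500 counts left 28 switched genes and a limit of 25 percentage points gave 151, with 69 to 82 without 1 of the other columns. Annotated isoforms only gave 54 switched genes, and the unweighted mean of column shares gave 63. Of these, 51 and 62 were among the 80 of the main rule. Summing isoforms with the same introns left 80. Exons lower in MG numbered 16 at 500 counts and 89 at 25 points, exons higher 8 and 65, and exons of at most 27 nt that were lower 5 at 500 counts. At a minimum of 50 counts 1 such exon was higher. The alternatives for exons, the minimum on the mean level and median of ratios scaling for switches were chosen after seeing the data. The summed level of the Müller glia markers was 44123 CPM, 43891 in annotated isoforms only and 4825 without Apoe; that of the rod genes was 990, 382 and, without Sag, 121 CPM. No called gene changed direction among those compared, which were the markers, the genes with the largest folds and those with the most MG counts. Other called genes were not compared in this way. Of 168 comparisons of these folds, of share differences and of summed marker lists, 98 moved by more than the counting interval. For these moved values the cause was not tested. Depth limits the RGC column most: 3 counts are 0.855 CPM there and 0.0541 CPM in Rod.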

Other observations

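Of the 124 genes lower in MG, RGC was the highest column for 38, AC for 32, Cone for 26, and BC and Rod for 14 each. The 10 lowest by fold, named after their values were seen, were led by Calb2, the calcium-binding protein calretinin, at 26.9 CPM in MG and 23012 in RGC (fold 0.00561). They also held the synucleins Sncg (34.7 CPM, fold 0.0107) and Sncb (99.9 CPM, fold 0.0329), the vesicle fusion protein Snap25 (35.9 CPM, fold 0.0158), the G protein subunit Gng3 (44.7 CPM, fold 0.0203), Stmn3, Tagln3 and 3 cone genes, Opn1sw, Opn1mw and Pde6h. These genes had at least 165 MG counts each, and neuron genes below 100 MG counts were not compared.

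Among the 3532 genes were 42 loci that the table names by a chromosome and a position and not by a gene. Of these, 14 were higher in MG and none was lower, where 17.2% of all 3532 genes were higher and 3.51% lower. The one with the most MG counts, 311, was named by chromosome 7 and position 19308000 and stood at 50.7 CPM in MG and at most 2.33 in the other columns (44.5-fold, 34.8 to 57.1). That position lies within the span of the gene Fosb (chr7:19302696-19310051). The locus at position 95049000 of chromosome 4 (191 MG counts, 12.4-fold) lies beside Jun (chr4:95049034-95052222). Whether the counts of these loci come from the genes there was not tested. Another 2 lay next to each other on chromosome 6, at 53815000 and 53816000, with 131 and 164 MG counts and folds of 32.9 and 56.8.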
